A study of Rattus norvegicus with 8 samples.

Results

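The purinergic genes described here were the 4 adenosine receptors (Adora1, Adora2a, Adora2b and Adora3), the adenosine-removing kinase Adk, the cell-surface nucleotidases Nt5e, Entpd1 and Entpd2, and the ATP-gated channels P2rx4 and P2rx7. They were chosen by name, as the non-control array spots that carried 1 of these symbols. These 10 genes, out of 35250 names on the array, were read by 41 spots that held 14 different probes of 60 bases. The samples were total RNA from the dentate gyrus, the hippocampal field of the granule cells, of 8 adult female Sprague-Dawley rats. All 8 rats had been ovariectomized and had gone through status epilepticus (SE) induced by kainic acid, an agonist of kainate-type glutamate receptors. According to the sample labels kainic acid was given at 16 mg/kg and SE was ended after 5 h with pentobarbital. The 4 COS rats received oil. The 4 CES rats received estradiol (E2) in 4 doses of 2 µg, 2 of them before SE and 2 after it. The study's methods give another kainic acid dose, another drug to end SE and another timing of hormone and tissue collection, so the interval between SE and sampling is uncertain. Ovariectomized rats without SE were not analysed here, so the comparison of CES with COS reads E2 against oil among rats that all had seizures.

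Adenosine and ATP act on cells through separate receptor families. ATP that leaves cells opens P2X channels and stimulates P2Y receptors. At the cell surface Entpd1 (CD39) cuts ATP to AMP, whereas Entpd2 mainly removes its last phosphate. Nt5e (CD73) releases adenosine from AMP. Adenosine then acts on its 4 receptors until it is taken up into cells and phosphorylated by Adk. In the hippocampus the A1 receptor dampens excitatory transmission, extracellular adenosine rises during seizures, and astrocytic Adk sets how quickly adenosine is removed.

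The probes with coding sequence that carried the results are printed so that each value can be traced to the stretch of transcript it read. All sequences are in transcript direction and come from the scanner files, whose coordinates are on the rat build rn4. The Nt5e probe, at chr8:93634357-93634416 on the plus strand, and the P2rx4 probe, at chr12:34945104-34945163 on the minus strand, were the only probes of their genes. A pair of Entpd1 probes, at chr1:245887283-245887342 and chr1:245887297-245887356 on the plus strand, shared the 46 bases shown in capitals, and the third Entpd1 probe lay 2281 bases further along, at chr1:245889638-245889697. The single-spot Adora1 probe, at chr13:47160385-47160444 on the minus strand, is shown because it differed in result from the 10-spot probe 1135 bases away. The Adk probe, at chr15:3094324-3094383 on the minus strand, and the Adora3 probe, at chr2:201160545-201160604 on the plus strand, read the only tested members that were higher in CES on average.
Nt5e: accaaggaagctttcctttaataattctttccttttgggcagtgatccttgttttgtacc
P2rx4: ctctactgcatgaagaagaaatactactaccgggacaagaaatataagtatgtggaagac
Entpd1, upstream probe: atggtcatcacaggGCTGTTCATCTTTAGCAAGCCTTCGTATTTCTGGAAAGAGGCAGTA
Entpd1, overlapping probe: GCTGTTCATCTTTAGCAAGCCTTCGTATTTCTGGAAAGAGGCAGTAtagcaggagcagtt
Adora1, single-spot probe: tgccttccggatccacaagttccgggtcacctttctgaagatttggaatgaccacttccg
Adk: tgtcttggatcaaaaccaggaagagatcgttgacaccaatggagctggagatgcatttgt
Adora3: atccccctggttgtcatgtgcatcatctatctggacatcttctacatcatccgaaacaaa

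Each of the 4 arrays, all on 1 slide, held 2 rats of the same group, 1 labelled with Cy3 and 1 with Cy5, so that each group had 2 rats in each dye. A level is the log2 of the background-subtracted signal over the median valid spot of that rat, averaged over a gene's spots, so 0 marks the median spot. Levels of different genes come from different probes and were not compared as amounts of RNA. The summed levels of marker lists weigh each gene by the signal of its probe. Valid spots, those with a foreground at least 2 times their background, numbered 32381 to 38553 in COS rats and 30690 to 35352 in CES rats. No probe for Prox1, a defining gene of granule cells, was well above background in any rat, whereas the granule cell gene Calb1 and the neuronal gene Snap25 were well above background in all 8. The limma fit compared 20825 genes, of which 1195 were called higher and 5957 lower in CES at an adjusted p under 0.05. The median difference over all genes was -0.25, and the split of calls moved with the scaling: 3252 genes were higher and 2208 lower after loess and Aquantile normalization, with a median of 0.04. The difference of each tested member is therefore also given relative to the all-gene median.

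Among the purinergic genes Entpd1 and Nt5e, 2 of the 3 surface enzymes, and the channel P2rx4 were lower in E2-replaced rats, whereas Entpd2, Adk and the adenosine receptors did not pass the test. Entpd1 was 3.08-fold and Nt5e 2.59-fold lower in CES, and P2rx4 was 1.57-fold lower. The sizes depended on the scaling, since after loess and Aquantile the log2 differences were -0.79 for Entpd1 and -0.74 for Nt5e. P2rx4 was no longer called there, with a difference of -0.18 (limma adjusted p = 0.479). Over 25 alternative settings of the processing P2rx4 was called in 11, and Entpd1 and Nt5e in 23 each. Several of these settings could not move a difference, so they are not separate checks. Of the 9 members tested, 3 were called lower and 0 higher, which is 33.3% of them beside 34.3% of all genes tested (28.6% lower and 5.74% higher). A total of 7 differences were negative and 2 positive, with a median of -0.40, or -0.15 once the all-gene median was subtracted. The share of calls among the members was thus near that of the whole array, and the members are described one at a time.

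**Figure D1:**
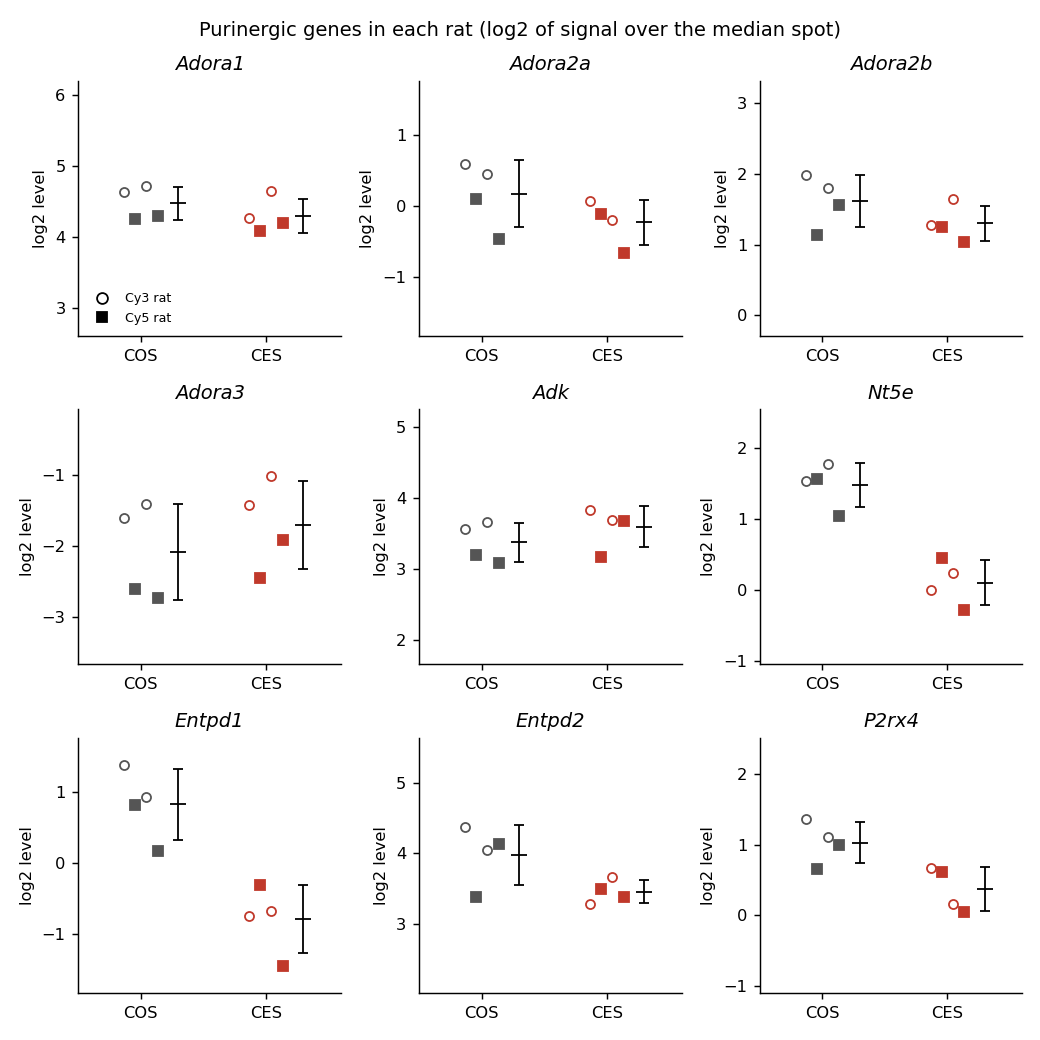
Log2 levels (vertical axis, log2 of signal over the median spot, each panel spanning the same range) of the 9 tested genes in the 4 COS and 4 CES rats, with open circles for Cy3 rats, filled squares for Cy5 rats, and a horizontal mark with bars for the mean ± SD. The rats of the groups lie apart in Entpd1 and Nt5e and overlap in the other 7 panels, and in Adora3 the Cy3 rats lie above the Cy5 rats.

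Entpd1, the nucleotidase that removes the outer phosphates of ATP and ADP and that is abundant on microglia and vessels, had the largest difference of the members. Its log2 levels were 1.39, 0.82, 0.92 and 0.17 in COS replicates 1 to 4 and -0.74, -0.31, -0.68 and -1.46 in CES replicates 1 to 4. All 4 CES rats lay below all 4 COS rats, a separation that 19.7% of all genes also showed in this direction and 1.55% in the opposite one. The mean fell from 0.83 ± 0.50 to -0.80 ± 0.48 (SD, n = 4 each), a log2 difference of -1.62 ± 0.27 (SE, limma adjusted p = 0.00406) and of -1.37 once centred on the all-gene median. Only 3.28% of all genes tested had a lower difference.

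The 3 Entpd1 probes moved the same way in the fit across probes. The upstream probe differed by -1.18 ± 0.24 (SE, limma adjusted p = 0.00603), the overlapping probe by -1.64 ± 0.31 (SE, limma adjusted p = 0.00516) and the distal probe by -1.74 ± 0.28 (SE, limma adjusted p = 0.00368). Since the upstream and overlapping probes shared most of their bases, they are not separate readings of the transcript. The distal probe was well above background in all 8 rats, and the upstream and overlapping probes in 5 and 6 of 8.

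Nt5e, the enzyme that turns AMP into adenosine outside the cell, was read by 1 probe well above background in every rat. Its log2 levels were 1.53, 1.56, 1.78 and 1.04 in the COS rats and 0.01, 0.46, 0.23 and -0.28 in the CES rats, again without overlap. The difference was -1.38 ± 0.21 (SE, limma adjusted p = 0.00362), or -1.12 once centred on the all-gene median. Entpd1 and Nt5e were the 2 members whose groups did not overlap, and both remained called without any 1 of the 8 rats, with adjusted p of at most 0.0449 and 0.0440. Both lost their calls after normexp background correction, at adjusted p = 0.0969 for Entpd1 and 0.114 for Nt5e (limma). Under the per-gene test of the study's methods the differences were the same and 3 members had an unadjusted p under 0.05, but none passed after adjustment.

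Entpd2, a nucleotidase that mainly removes the last phosphate of ATP and that marks neural progenitors and some astrocytes, read 4.38, 3.38, 4.04 and 4.13 in the COS rats and 3.29, 3.49, 3.67 and 3.38 in the CES rats. COS replicate 2 lay within the CES range and the other 3 COS rats above it. Centred on the all-gene median the difference was -0.27. Before centring it was -0.52 ± 0.21 (SE, limma adjusted p = 0.0810), with a 95% interval of -0.996 to -0.05, and missed the threshold. Without COS replicate 2, without CES replicate 3 or without CES replicate 4 it passed, at adjusted p as low as 0.0289 (limma).

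**Figure D2:**
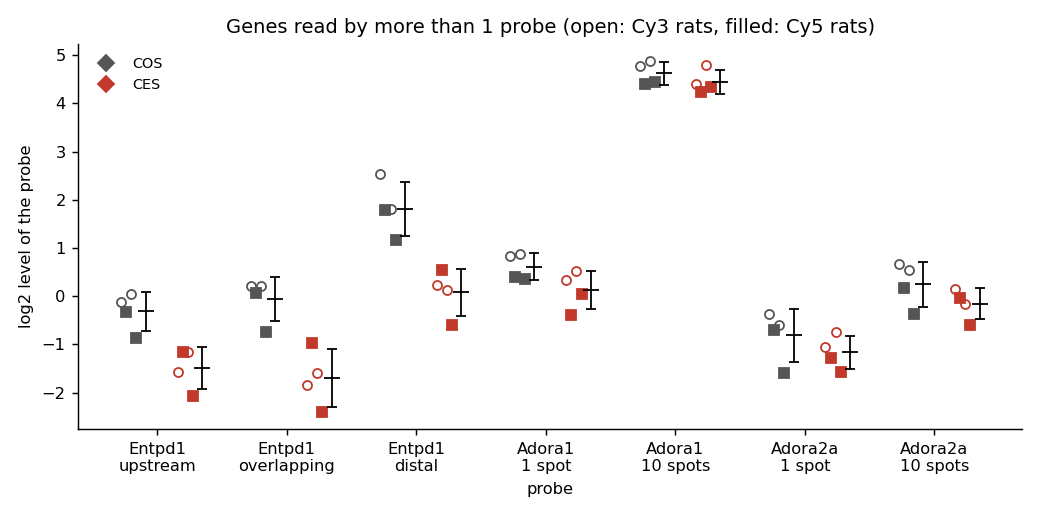
Log2 level of each probe (vertical axis) of the 3 tested genes with more than 1 probe, in COS rats (grey) and CES rats (red), with Cy3 rats open, Cy5 rats filled, and the mean ± SD to the right of each group. The CES rats lie below the COS rats in all 3 Entpd1 probes, while the groups overlap in every Adora1 and Adora2a probe.

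Adk, which phosphorylates adenosine to AMP inside the cell, was not lower in CES. Its log2 levels were 3.56, 3.20, 3.66 and 3.08 in the COS rats and 3.83, 3.17, 3.70 and 3.68 in the CES rats, so 3 CES rats lay above all COS rats and CES replicate 2 within them. The difference of 0.22 ± 0.17 (SE, limma adjusted p = 0.342) had a 95% interval of -0.16 to 0.59, and centred on the all-gene median it was 0.47. Adk was above 0 and above the all-gene median under all 25 alternative settings, and was called under none of them. Its difference could not move where only model terms, names or the choice of probe changed, since it had 1 spot.

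The adenosine receptor genes were not called in either direction. Adora1, the inhibitory A1 receptor, read 4.63, 4.26, 4.73 and 4.29 in the COS rats and 4.27, 4.08, 4.65 and 4.21 in the CES rats, with broad overlap. The difference was -0.18 ± 0.16 (SE, limma adjusted p = 0.415), with a 95% interval of -0.53 to 0.18, so a change of the size seen in Nt5e lay outside it. Centred on the all-gene median the difference was 0.08, and it lay between 0.00373 and 0.16 under the 25 alternative settings. The uncentred value was positive under 4 scalings that also raised the median of all genes.

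The 2 Adora1 probes did not give the same call. The probe present in 10 spots, which dominates the gene's average through its signal, differed by -0.17 ± 0.16 (SE, limma adjusted p = 0.421 across 24861 probes). The single-spot probe read 0.83, 0.39, 0.87 and 0.36 in the COS rats and 0.35, -0.40, 0.52 and 0.04 in the CES rats, and differed by -0.49 ± 0.16 (SE, limma adjusted p = 0.0431). CES replicate 3 lay within the COS range of the single-spot probe and the other 3 CES rats below it, and the difference between the probes was not tested. Repeated spots of the 10-spot probe within 1 rat had a median SD of 0.17 (range 0.13 to 0.28), beside an SD of 0.24 between rats of a group, which also holds the dye.

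Adora2a, the stimulatory adenosine receptor that is dense in the striatum and sparse in the hippocampus, read 0.60, 0.09, 0.45 and -0.46 in the COS rats and 0.07, -0.11, -0.20 and -0.67 in the CES rats. The groups overlapped, and COS replicate 4 lay below 3 of the CES rats. The difference of -0.40 ± 0.20 (SE, limma adjusted p = 0.154) passed the threshold without CES replicate 2, at adjusted p = 0.0410. Centred on the all-gene median it was -0.15 with all 8 rats. The 10-spot and single-spot probes, 158 bases apart, differed by -0.40 and -0.35. Of 6 striatal marker genes read here 1 was lower in CES and 0 were higher, beside 28.6% and 5.74% of all genes. It was Penk, the proenkephalin gene, which fell by 2.74 on the log2 scale (limma adjusted p = 0.00585). The other 5 had differences of 0.02 to 0.99, none of them called. The summed linear level was 64.8 to 109.9 in COS rats and 24.4 to 59.9 in CES rats over all 6, and without Penk 11.3 to 18.3 in COS rats and 12.8 to 21.7 in CES rats. The marker Drd1 stood well above background in only 1 COS rat and 2 CES rats. The part of striatal tissue in the Adora2a levels was not tested.

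Adora2b, the low-affinity adenosine receptor, read 1.98, 1.14, 1.81 and 1.56 in the COS rats and 1.28, 1.25, 1.64 and 1.04 in the CES rats. COS replicates 2 and 4 lay within the CES range. The difference of -0.32 ± 0.18 (SE, limma adjusted p = 0.184) was -0.07 once centred on the all-gene median, and the uncentred value was positive under the same 4 scalings.

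Adora3, the A3 receptor, was close to background. Its probe was well above background in 0 of the 4 COS rats and in 2 of the 4 CES rats, both labelled with Cy5. The levels were -1.60, -2.60, -1.41 and -2.73 in the COS rats and -1.42, -2.45, -1.01 and -1.91 in the CES rats, so the Cy3 rats lay above the Cy5 rats in each group. The fitted difference of 0.38 ± 0.18 (SE, limma adjusted p = 0.133) missed the threshold, and its 95% interval of -0.03 to 0.80 included 0. Centred on the all-gene median the difference was 0.64. Adora3 was called higher with the processed signal, after quantile normalization, with the median taken over commonly valid spots and in the deposited log2 table, at adjusted p of 0.0215 to 0.0306 (limma).

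**Figure D3:**
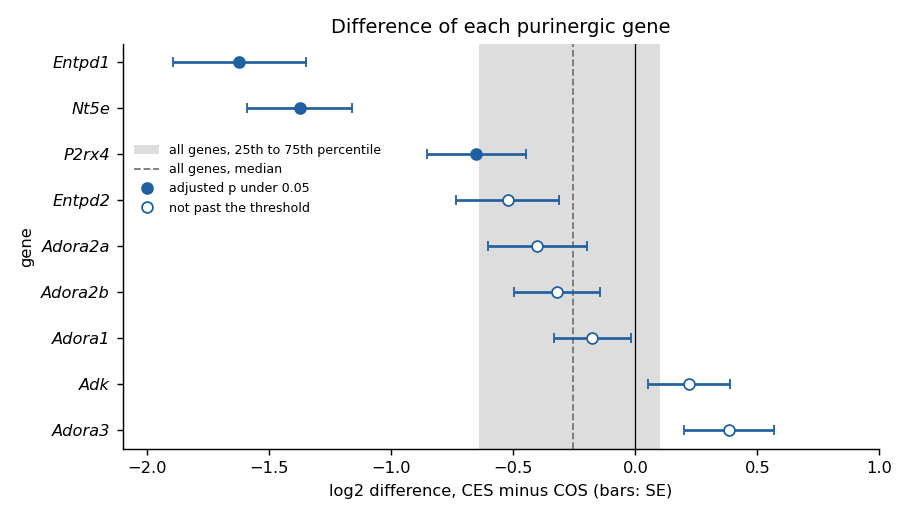
Log2 difference of each tested member, CES minus COS (horizontal axis), with SE bars, filled where the adjusted p was under 0.05. The grey band holds the differences of all genes from the 25th percentile (-0.64) to the 75th (0.10) and the dashed line their median (-0.25), and Entpd1 and Nt5e lie far to the left of the band while P2rx4 lies at its edge.

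P2rx4, the ATP-gated channel that microglia raise after injury, was read by 1 probe well above background in all rats. Its log2 levels were 1.36, 0.66, 1.10 and 0.99 in the COS rats and 0.67, 0.62, 0.17 and 0.05 in the CES rats. COS replicate 2 lay just below CES replicate 1, and the other 3 COS rats lay above every CES rat. The difference was -0.65 ± 0.20 (SE, limma adjusted p = 0.0332), or -0.40 once centred on the all-gene median, and 24.5% of all genes had a lower difference. This call was the least stable of the 3. It was lost without COS replicates 1, 3 or 4 and without CES replicates 1, 3 or 4, with adjusted p of up to 0.116, and after loess and Aquantile the difference was -0.18 (limma adjusted p = 0.479).

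P2rx7, the ATP-gated channel that drives release of interleukin-1β from microglia, could not be measured. Its probe was printed in 10 spots, and of the 80 readings over 8 rats 32 were valid and 2 well above background. Every spot failed the filter in at least 1 rat, so it was not tested in the main fit. Of the 40 Cy3 readings 26 were valid, against 6 of the 40 Cy5 readings, and 9 of the 80 readings lay above the level that 95% of negative control spots did not reach. Medians over the 10 spots ran from -2.42 to -1.71 in the Cy3 rats and from -4.64 to -4.52 in the Cy5 rats, in both groups, so the values followed the dye. Without the filter the difference was -0.16 ± 0.22 (SE, limma adjusted p = 0.655). The genes P2rx4 and P2rx7 are neighbours, and their probes lay 129711 bases apart on rat chromosome 12.

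Microglia and macrophages express Entpd1, P2rx4 and P2rx7, and in bulk tissue fewer cells of a type and less RNA per cell cannot be told apart. All 12 genes of the microglial marker list were tested, of which 5 were lower in CES and 0 higher. This was 41.7% of the list, beside 34.3% of all genes called and 28.6% lower. The median difference of the list was -0.52, or -0.26 once centred on the all-gene median. The phagocytosis-linked lysosomal gene Cd68 fell by 2.19, the integrin gene Itgam by 1.92 and the adaptor gene Tyrobp by 1.85 on the log2 scale, and C1qa and Csf1r were the other 2. The summed linear level of the list, which was not centred, was 224.2 to 312.5 in COS rats and 121.1 to 204.5 in CES rats, without overlap. Tmem119 was well above background in 0 COS rats and 1 CES rat, Aif1 and Cx3cr1 differed by -0.32 and -0.43 (limma adjusted p = 0.213 and 0.106), and P2ry12 was higher (described with the P2Y receptors). Of the 10 astrocyte markers 2 were higher and 4 lower (60% called). Of 8 endothelial and mural markers tested 2 were higher and 4 lower (75% called). The astrocyte sums were 357.7 to 408.9 in COS rats and 238.4 to 310.2 in CES rats. They leaned on Vim, whose mean level was the highest of the list in COS rats, 7.33, and was 4.56 in CES rats. Aldh1l1 and Aldoc, the 2 higher markers, differed by 1.23 and 0.92, so the sums do not speak for the whole list. The part of these cells in the levels of Entpd1, Nt5e and P2rx4 was not tested.

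For the members with the largest differences, the tested genes whose log2 levels ran most closely in parallel over the 8 rats were listed as a description. For Entpd1 these were Ccdc86 (Pearson r = 0.996), Aim1l (r = 0.995) and LOC691477 (r = 0.994), and for Nt5e they were Ptpn2 (r = 0.999), Nfkbib (r = 0.998) and TC617186 (r = 0.998). Such values were common, since 15.7% of all genes had an r over 0.9 with Entpd1 and 17.8% with Nt5e. The difference between the groups is part of each r, as is the scaling that all genes of a rat share.

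Promoter windows from 250 bases before to 50 after the start site, from RefSeq on the rat build GRCr8, were found for 9 of the 10 members. The estrogen response element, the full palindrome, searched on both strands, was in 0 of the 9 windows and in 0.0269% of 33469 rat promoters. The AP-1 site (TGANTCA) was in 2 of the 9, Adora3 and Entpd2, and in 7.33% of all promoters. The GC box (GGGCGG) was in 5, Adora2b, Adk, Nt5e, Entpd2 and P2rx7, and in 33.1% of all promoters. The cAMP response element (TGACGTCA) was in 0 of the 9 windows and in 1.83% of all. These matches describe letters in the windows and not bound sites.

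The other genes of purine signalling were read in the same fit. Of 55 listed genes, 49 were found on the array and 39 were tested, of which 5 were called higher and 10 lower in CES (38.5% beside 34.3% of all genes). Their median difference was 0.04, or 0.29 once centred on the all-gene median, so the list held changes in both directions. After loess and Aquantile 8 were higher and 3 lower, so the balance of directions within the list depended on the scaling.

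Among 15 tested genes of adenosine clearance and production 4 were lower and 0 higher, which is 26.7% of them beside 28.6% of all genes lower. Adenosine deaminase, Ada, which converts adenosine to inosine, had log2 levels of 0.83, 0.47, 0.96 and 0.26 in the COS rats and -1.28, -0.43, -0.99 and -1.997 in the CES rats. The groups did not overlap, and the difference was -1.81 ± 0.30 (SE, limma adjusted p = 0.00390), with only 2 of the 4 CES rats well above background. Ada was called in 21 of the 23 alternative settings that tested it, and its difference was -0.81 after loess and Aquantile. Of the 10 other ectonucleotidases tested 2 were lower and 1 higher (30% called beside 34.3% of all genes). Enpp3, a nucleotide pyrophosphatase, was 2.59, 1.93, 2.31 and 1.56 in the COS rats and 0.39, 0.97, 0.32 and -0.23 in the CES rats, a difference of -1.74 ± 0.27 (SE, limma adjusted p = 0.00362). Alpl, the tissue-nonspecific alkaline phosphatase that also dephosphorylates AMP, differed by -1.09 ± 0.21 (SE, limma adjusted p = 0.00583). The groups of Enpp3 and Alpl did not overlap either, and Alpl lost its call without COS replicate 3, at adjusted p = 0.0542. Alpl was called in 20 of 25 alternative settings, and not after normexp background correction (limma adjusted p = 0.269).

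**Figure D4:**
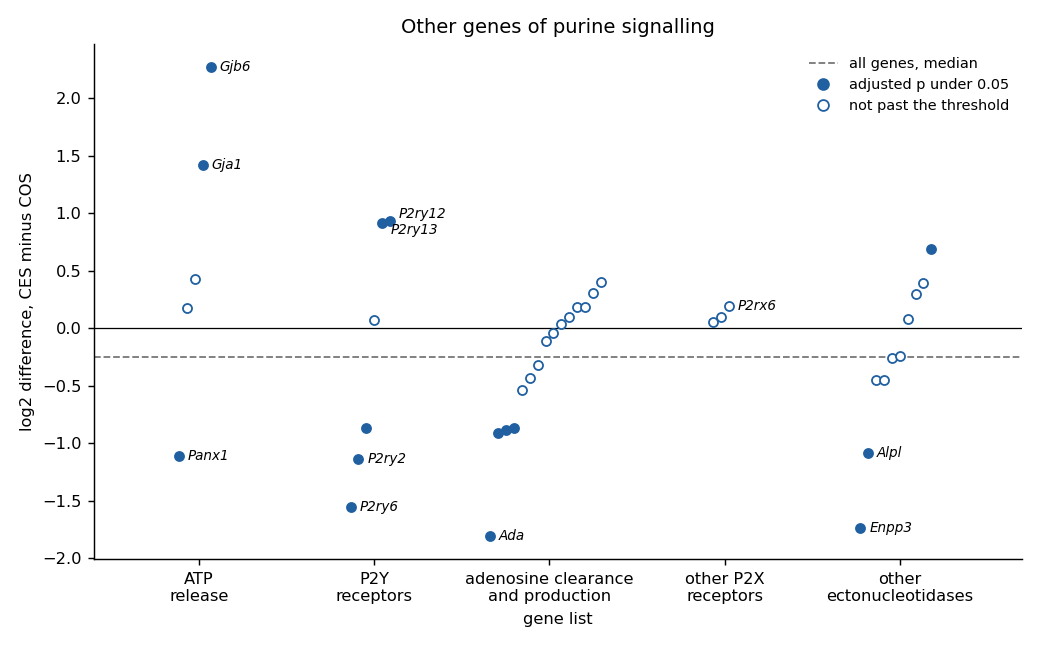
Log2 difference, CES minus COS (vertical axis), of the 39 other purine signalling genes tested, in 5 lists along the horizontal axis, filled where the adjusted p was under 0.05. The dashed line marks the median of all genes (-0.25), and called genes lie on both sides of it in the lists of P2Y receptors, ATP release and ectonucleotidases.

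The P2Y receptors split, with 2 of 6 tested genes higher and 3 lower in CES (83.3% called beside 34.3% of all genes). P2ry6, a UDP receptor of microglia linked to phagocytosis, read 3.62, 2.96, 3.82 and 2.89 in the COS rats and 1.17, 2.85, 1.76 and 1.29 in the CES rats, where CES replicate 2 lay just below the COS rats. Its difference was -1.55 ± 0.37 (SE, limma adjusted p = 0.0119), lost without COS replicate 3 or CES replicate 1 and after loess and Aquantile (-1.05, limma adjusted p = 0.0858). P2ry2, a receptor for ATP and UTP, differed by -1.14 ± 0.23 (SE, limma adjusted p = 0.00612), with 2 of 4 CES rats well above background. COS replicate 4 lay within the CES range of P2ry2, which was called in 21 of the 24 alternative settings that tested it.

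P2ry12, the ADP receptor that marks ramified microglia, went the other way. Its log2 levels were 2.28, 1.63, 2.51 and 1.91 in the COS rats and 3.05, 2.44, 3.45 and 3.12 in the CES rats. CES replicate 2 lay within the COS range and the other 3 CES rats above it, and within each dye both CES rats lay above both COS rats. The difference was 0.93 ± 0.20 (SE, limma adjusted p = 0.00782), or 1.19 once centred on the all-gene median. P2ry12 was called in 23 of 25 alternative settings, and not after normexp background correction (limma adjusted p = 0.113). P2ry13, a related ADP receptor, stood well above background in none of the 4 COS rats and in 2 of the 4 CES rats. Its fitted difference was 0.92 ± 0.21 (SE, limma adjusted p = 0.0110), and it was 0.40 after loess and Aquantile and 0.22 after normexp background correction, where it was not called (limma adjusted p = 0.913). Of the other P2X receptors 3 were tested and none was called by limma (0 also at an unadjusted p under 0.05), and the most different of them, P2rx6, changed by 0.20 ± 0.17 (SE, limma adjusted p = 0.412).

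Genes for proteins that can release ATP also split, with 2 of 5 tested higher and 1 lower (60% called beside 34.3% of all genes). Gjb6, an astrocytic connexin, had the largest difference of the whole list, with 1.99, 2.01, 1.19 and 0.75 in the COS rats and 4.06, 2.15, 4.37 and 4.44 in the CES rats. The groups did not overlap, although CES replicate 2 was close to the COS rats, and the difference was 2.27 ± 0.47 (SE, limma adjusted p = 0.00699), lost without COS replicate 3 (adjusted p = 0.0591). Gja1, the main connexin of astrocytes, was 4.16, 3.43, 2.89 and 3.03 in the COS rats and 5.21, 3.30, 5.67 and 5.01 in the CES rats, with CES replicate 2 within the COS range. Its difference of 1.42 ± 0.41 (SE, limma adjusted p = 0.0240) was lost without COS replicate 3, COS replicate 4 or CES replicate 1, at adjusted p of up to 0.112. Gja1 was called in 17 of 25 alternative settings. Panx1, the pannexin channel through which ATP leaves neurons and glia, fell instead, from 4.17, 4.45, 4.65 and 4.01 in the COS rats to 2.88, 3.49, 3.37 and 3.09 in the CES rats. Its groups did not overlap, and the difference was -1.11 ± 0.21 (SE, limma adjusted p = 0.00517), at 0.0516 without COS replicate 3. Panx1 was called in 22 of 25 alternative settings.

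**Figure D5:**
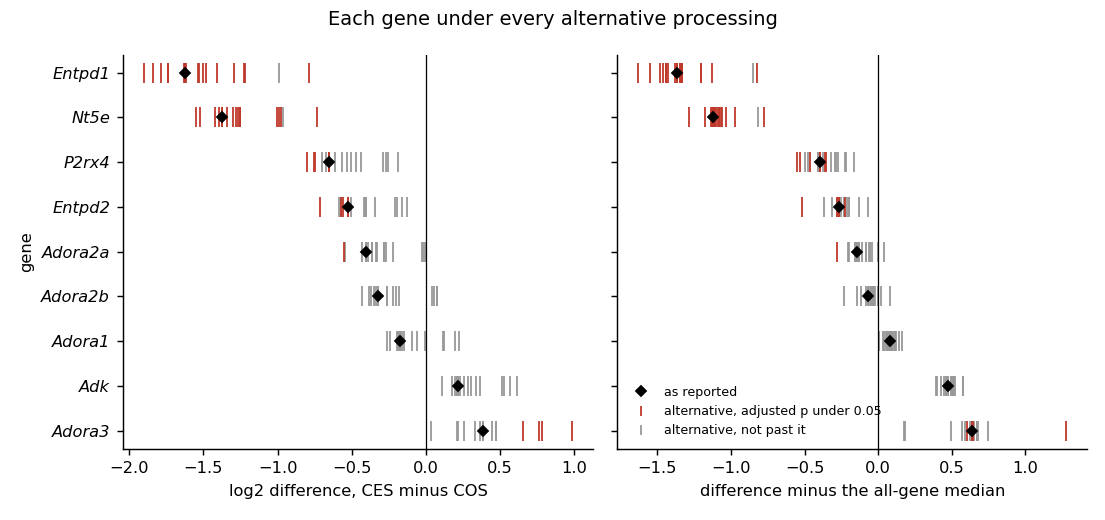
Difference of each member under the 25 alternative settings (bars, red where the adjusted p was under 0.05) and as reported (diamonds), as the log2 difference CES minus COS on the left and minus the median of all genes in the same setting on the right. Entpd1 and Nt5e stay below 0 on both sides under every setting, Adk stays above 0, and Adora1 and Adora2b cross 0 on the left.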

How the data were processed

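Total RNA of 8 rats, 4 per group, was hybridised to 4 Agilent rat arrays, 2 rats of a group to an array in Cy3 and Cy5. The authors deposited scanner intensity values (Agilent Feature Extraction 10.7.3.1) and a log2 table, which the files show to be log2 of the median signal minus background minus a constant per rat. Following the study's methods, spots with a foreground at least 2 times background were valid, and background-subtracted signals were divided by the median of valid spots of the same label. Spots valid in all 8 rats and not marked as outliers by the software (26294 of 43379) were averaged per gene. Leaving out the outlier-marked spots was listed as an alternative, and became the main setting. Names came from RefSeq accessions (17512 of 41012 probes), otherwise from the file. Limma 3.58.1 in R 4.3.3 fitted group and dye with the array as a random block (statmod 1.5.0, correlation -0.01), 20825 genes, Benjamini-Hochberg adjusted, two-sided. The fit was tested on simulated data. Figures used matplotlib. Members and lists were chosen with earlier results of these data known. Array number limits the precision.

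The pathway genes named were the 10 called genes of largest absolute difference and the most different gene of each list, and the genes named beside Entpd1 and Nt5e were the 3 with the highest Pearson r. The marker lists for oligodendrocytes, choroid plexus and blood held 0 called genes, that for oligodendrocyte precursors 2 lower, and that for neurons 3 higher and 2 lower. The share called was 66.7% for the precursors and 50% for neurons, beside 34.3% of all genes. The summed linear level of the choroid plexus list varied widely between rats of a group, from 13.5 to 622.7 in COS and from 16.7 to 195.2 in CES. Replicate numbers of the groups share the dye. Deviations of rats with the same number correlated at 0.21 to 0.35 before and at -0.06 to -0.04 after removing the dye. Each array holds 1 group, so array and group cannot be told apart beyond the random block. The correlation of that block moved with the setting, from -0.51 without the dye term to 0.56 with normexp background correction. Alternatives covered background correction, scaling, spot filters, probes, names, model terms, the methods' t-test and each rat left out. Of the striatal markers, 1 that was tested is not reported here.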

Additional observations from a re-analysis of the deposited data

Results flagged for a closer look

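Within the groups of 4 rats, the level of 1 rat was set against the other 3 for each of the 9 tested members and 11 named pathway genes, 40 groups in all. In 1 of them the gap to the nearest rat was large against the range of the group: Gjb6 in CES replicate 2 was 2.15, while the other 3 CES rats lay between 4.06 and 4.44. No member's group held such a rat. Chance alone gives about 1 such group in 20.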

How the results depend on the processing

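Of the members, Entpd1 and Nt5e kept their direction under all 25 alternatives and were called in 23, and P2rx4 kept its direction in all and was called in 11. Part of this was fixed in advance. Changes of model terms, names or the choice of probe left the 1-spot gene Nt5e at -1.38, and the RefSeq names gave the main fit again. The counts are therefore not counts of separate checks. Their differences ranged from -1.90 to -0.79 (Entpd1), -1.55 to -0.74 (Nt5e) and -0.80 to -0.18 (P2rx4). The 2 settings without the calls of Entpd1 and Nt5e were normexp background correction (members called 0 lower) and the methods' t-test after adjustment (0 lower). In that t-test 5909 genes had an unadjusted p under 0.05, and the Benjamini-Hochberg adjustment over all genes was added here. Adora3 was the 1 member called higher with the processed signal, quantile normalization, scaling over spots valid in all rats and the deposited log2 table. Adora1 changed sign to 0.12 (loess and Aquantile), 0.12 (quantile), 0.22 (spots valid in all rats) and 0.20 (deposited table), and Adora2b to 0.0392, 0.0548, 0.0778 and 0.0746 in the same order. Higher and lower calls over all genes and over the pathway genes were 139 and 492, and 2 and 1, with normexp, 3252 and 2208, and 8 and 3, with loess and Aquantile, 3023 and 2257, and 9 and 6, with quantile normalization, 3296 and 1717, and 11 and 4, with spots valid in all rats, and 3213 and 1927, and 10 and 5, in the deposited table. They were 394 and 2743, and 2 and 6, without a filter, 1222 and 2811, and 3 and 6, with foreground at least 3 times background, and 0 and 0 in both with the methods' t-test after adjustment. Leaving out 1 rat gave 285 to 1812 higher and 1142 to 6954 lower genes, 0 to 0 higher and 2 to 4 lower members, and 2 to 7 higher and 3 to 12 lower pathway genes, and the lowest counts over all genes came without COS replicate 3. The replicate block in place of the dye gave 1050 higher and 6055 lower genes and changed no call of a member. Keeping outlier-marked spots, chosen after seeing the data, gave 1238 and 6054 and the same 3 members. The cause of these shifts was not tested. Signal close to background limits Adora3 and P2rx7.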
